A study of Oryctolagus cuniculus with 4 samples.

Results

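Collagen genes were followed across 4 sections of rabbit supraspinatus muscle, a muscle of the rotator cuff. A gene was a member if its symbol in the count table, written in upper case, was COL, a number, A and a number. This rule found 27 of 21139 genes: 7 fibrillar, 6 of basement membrane type IV and 14 others. The gene expression was measured with Visium, in which printed spots under a tissue section bind polyadenylated RNA and label every molecule with a spot barcode and a unique molecular identifier (UMI). The first section was fresh healthy muscle and the second healthy muscle kept for 6 years. The other sections were muscles kept equally long and taken 2 weeks and 16 weeks after tenotomy, the surgical release of the tendon. All animals were skeletally mature female New Zealand White rabbits, each muscle was snap-frozen in cooled isopentane, and the sections came from the posterior distal muscle belly away from fascia and tendon. Each condition was 1 section. By their labels the sections came from 3 animals, since the stored healthy and the 16-week section carry the same animal number and opposite side letters. No condition therefore had a replicate, no test was run between sections, and the 95% intervals given here cover counting error only. Differences between animals, between sections of a muscle and, for the fresh section, storage cannot be told apart from the conditions.

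Collagens are triple helices of 3 chains, each chain made from its own gene. Fibrillar collagens form the tension-bearing fibrils of tendon and of the connective tissue around muscle bundles and fibers, with type I and type III as the main kinds and type V and type XI as minor kinds that enter the same fibrils. Type IV forms the sheet-like network of basement membranes around muscle fibers, capillaries and nerves. Further collagens sit on fibril surfaces, link basement membranes to the matrix or span cell membranes. In muscle, fibroblasts and related stromal cells are known as the main source of fibrillar collagens, and fibrosis after tendon release is a known feature of rotator cuff muscle.

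The sections held 854 to 2440 spots and 4079313 to 12536450 UMIs, with a median of 2090 to 5195 UMIs per spot. Mitochondrially encoded genes took 33.8% to 49.3% of UMIs, more in both healthy sections. Levels are UMIs per 10000 UMIs of the section. Muscle fiber markers with a feature (3 of 8 listed genes, MYH1, MYH7 and MB) summed to 187 to 547 per 10000 UMIs, which matches the labelled tissue. The same barcode marks the same array position on every slide area, and 512 of the 2931 barcodes occurred in all 4 sections. A spot covers several cells or parts of fibers, and fewer collagen-making cells and less collagen RNA per cell cannot be told apart.

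Of the 27 collagen genes, 20 had at least 1 UMI and 11 had at least 50 UMIs over the 4 sections. The 11 were the fibrillar genes COL1A1, COL1A2, COL3A1, COL5A2, COL11A1 and COL11A2, the type IV genes COL4A1 and COL4A2, and COL12A1, COL14A1 and COL15A1. Below 50 UMIs were COL8A1 with 44, COL6A6 with 24, COL23A1 with 24, COL4A4 with 19, COL4A3 with 9, COL25A1 with 9, COL21A1 with 3, COL24A1 with 2 and COL28A1 with 1. Among these, COL6A6 is a chain of the beaded filaments of type VI, COL23A1 and COL25A1 span cell membranes, and COL24A1 is a minor fibrillar chain. No UMI was counted for COL4A5, COL4A6, COL6A5, COL9A1, COL9A2, COL17A1 and COL19A1. Taken as 3 counts over the number of spots, a count of 0 allows a share of spots with a UMI of up to 0.123% in stored healthy muscle and up to 0.351% in 2-week muscle, the lowest and highest limit, and the exact 95% interval reaches 0.151% and 0.431%. These 7 genes include cartilage chains (type IX), an epithelial membrane collagen (COL17A1) and restricted type IV chains. The RefSeq annotation of another rabbit assembly, mOryCun1.1, lists 44 collagen symbols, and the 17 without a feature here, among them COL5A1, COL6A1, COL6A2, COL6A3, COL2A1 and COL18A1, were not analysed here. In that annotation COL3A1 and COL5A2 are neighbours, as are COL4A1 and COL4A2, and COL4A3 and COL4A4.

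Collagen as a whole was lowest in fresh healthy muscle and highest at 2 weeks. The fresh healthy section had 6101 collagen UMIs, or 8.69 per 10000 UMIs (8.48 to 8.91). The stored healthy section had 37691, or 30.1 per 10000 (29.8 to 30.4). The 2-week section had 45704, or 112 per 10000 (111 to 113), and the 16-week section 24694, or 52.1 per 10000 (51.4 to 52.7). The order fresh healthy, stored healthy, 16 weeks, 2 weeks held without mitochondrial genes in the total and without the spot richest in collagen. Collagen was found almost everywhere: at least 1 UMI of a collagen gene lay in 75.6% of fresh healthy, 97.9% of stored healthy, 99.3% of 2-week and 96.2% of 16-week spots. The median spot held 2, 8, 32 and 8 collagen UMIs in that order of sections.

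**Figure D1:**
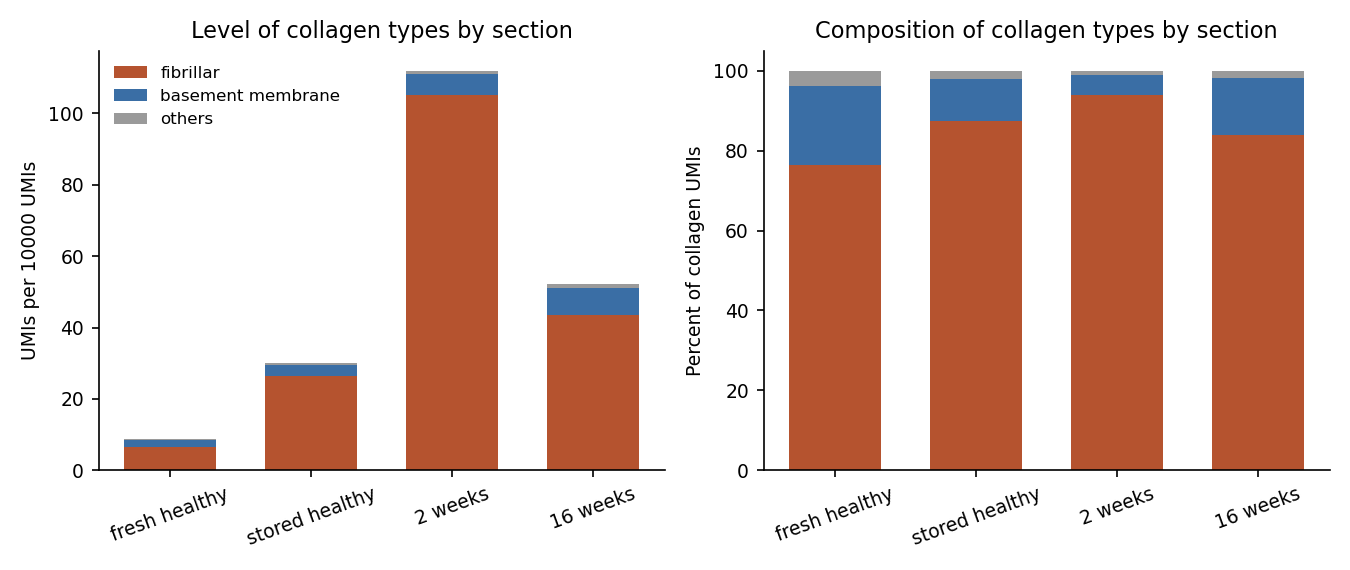
Collagen UMIs per 10000 UMIs of the section (left) and the makeup of the collagen UMIs in percent (right), stacked by type, for the 4 sections. The 2-week bar is the tallest at 112 per 10000, and the type IV share is smallest in that section at 5.24%.

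The makeup of the collagen signal also differed. Fibrillar genes took 76.3% of collagen UMIs (75.2 to 77.4) in fresh healthy, 87.5% (87.2 to 87.9) in stored healthy, 93.8% (93.6 to 94.0) in 2-week and 83.8% (83.3 to 84.2) in 16-week muscle. Type IV took 19.9%, 10.4%, 5.24% and 14.4% in the same order. The intervals of no pair of sections overlapped for either share. The remaining collagens took 3.72%, 2.07%, 0.934% and 1.79%. Within the collagen UMIs, then, the 2-week section was the most fibrillar and the fresh healthy section the richest in type IV. UMIs of different genes depend on how well the annotation covers each 3′ end, so the shares were compared between sections and not between types.

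By level, the fibrillar genes summed to 6.64 per 10000 UMIs in fresh healthy, 26.3 in stored healthy, 105 in 2-week and 43.6 in 16-week muscle. Type IV followed another order, at 1.73, 3.13, 5.87 and 7.52, so its highest value lay at 16 weeks. The remaining collagens stood at 0.323, 0.621, 1.05 and 0.934. Against the stored healthy section, fibrillar collagen at 2 weeks was 3.99-fold higher (3.94 to 4.05) and type IV 1.88-fold higher (1.78 to 1.98). At 16 weeks the same folds were 1.66 (1.63 to 1.69) and 2.40 (2.30 to 2.52). Between the tenotomy sections, the log2 ratio of 16 weeks over 2 weeks was -1.27 for fibrillar collagen and 0.36 for type IV.

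These folds depend on what the sections were scaled to. The median gene with at least 200 UMIs stood 0.51 higher on the log2 scale at 2 weeks and 0.77 higher at 16 weeks than in stored healthy muscle. Relative to that gene, the log2 ratio of fibrillar collagen over stored healthy was 1.49 at 2 weeks and -0.04 at 16 weeks, so the higher fibrillar level at 16 weeks did not hold under this scaling. Type IV stood at 0.40 and 0.49 relative to the median gene. The stored healthy section lay within 0.05 of the fresh healthy section by the median gene, and its fibrillar log2 ratio of 1.99 over fresh became 2.03.

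**Figure D2:**
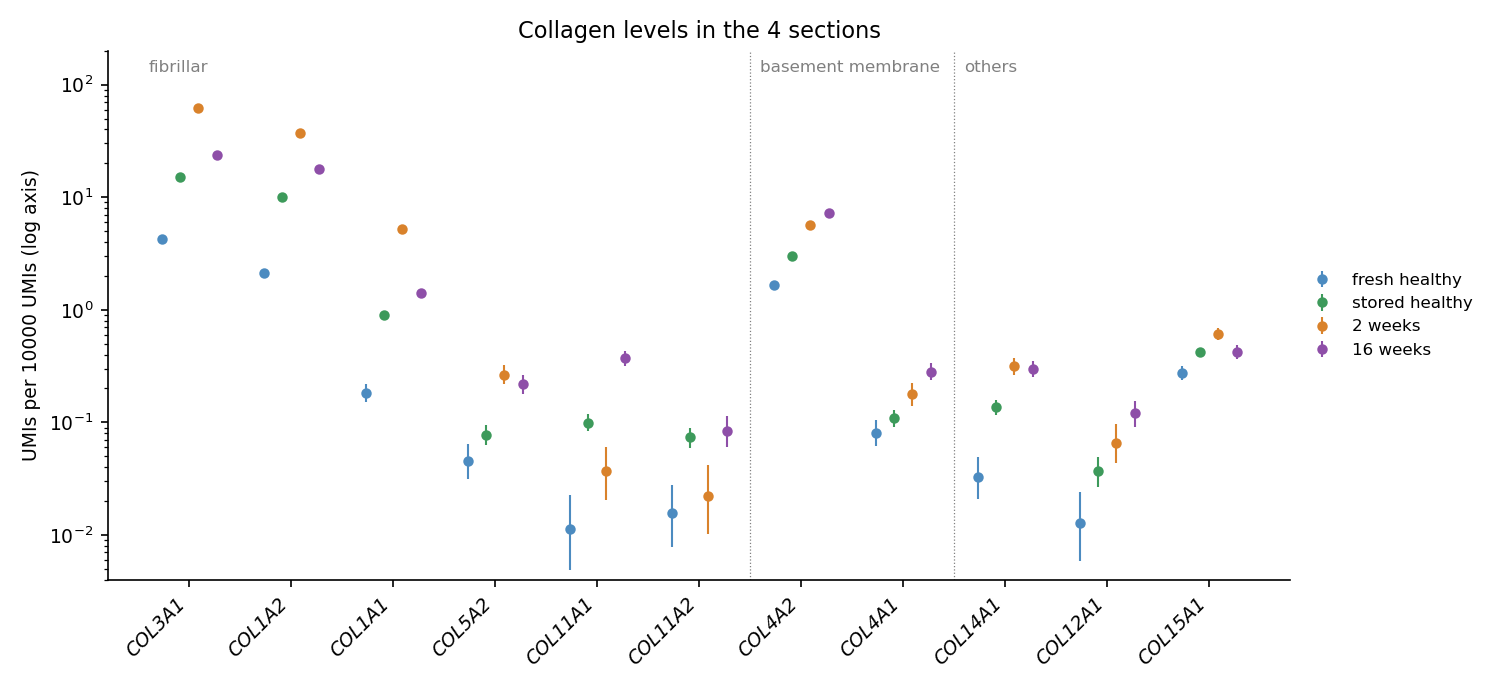
Level of each collagen gene with at least 50 UMIs in all, as UMIs per 10000 UMIs (log axis), in the 4 sections, with exact Poisson 95% intervals (counting error only). COL3A1, COL1A2 and COL1A1 are highest at 2 weeks, COL4A2 and COL4A1 at 16 weeks, and COL11A1 and COL11A2 in the stored healthy and 16-week sections.

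COL3A1, the only chain of type III collagen, gave the most collagen UMIs in every section. It had 2979 UMIs in fresh healthy, 18901 in stored healthy, 25497 in 2-week and 11273 in 16-week muscle, which are 4.24, 15.1, 62.5 and 23.8 per 10000. COL1A2, one of the chains of type I collagen, had 1499, 12647, 15107 and 8420 UMIs, or 2.14, 10.1, 37.0 and 17.8 per 10000. Both genes had the same order of sections, with 2 weeks far above the rest. COL1A1, the other type I chain, followed it with 128, 1129, 2146 and 671 UMIs, or 0.182, 0.901, 5.26 and 1.41 per 10000. UMIs of different genes depend on how well the annotation covers each 3′ end, so counts of COL1A1 and COL1A2 were not compared as levels. The 2-week over stored healthy fold was 5.84 (5.43 to 6.28) for COL1A1, 4.15 (4.07 to 4.22) for COL3A1 and 3.67 (3.59 to 3.76) for COL1A2. At 16 weeks the folds were 1.57, 1.58 and 1.76. Relative to the median gene, the log2 ratios at 16 weeks were -0.12, -0.11 and 0.04.

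The proportions among these chains were not the same in every section. COL1A1 had 8.54 UMIs per 100 UMIs of COL1A2 (7.07 to 10.2) in fresh healthy, 8.93 (8.39 to 9.49) in stored healthy and 7.97 (7.36 to 8.62) in 16-week muscle. At 2 weeks it had 14.2 (13.6 to 14.9), and 13.8 without the spot richest in collagen, above the intervals of the other sections. The ratio of COL3A1 to COL1A2 UMIs was 1.99 (1.87 to 2.12) in fresh healthy, 1.49 (1.46 to 1.53) in stored healthy, 1.69 (1.65 to 1.72) in 2-week and 1.34 (1.30 to 1.38) in 16-week muscle. Relative to COL1A1, COL3A1 stood at 23.3 (19.5 to 28.0), 16.7 (15.8 to 17.8), 11.9 (11.4 to 12.4) and 16.8 (15.5 to 18.2) in the same order. COL3A1 was thus highest in fresh healthy muscle against either chain of type I, and lowest at 16 weeks against COL1A2 but at 2 weeks against COL1A1. Such ratios within a section do not depend on how the sections were scaled.

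The minor fibrillar genes split into 2 patterns. COL5A2, a chain of type V collagen that takes part in starting type I fibrils, had 32, 97, 108 and 103 UMIs in the fresh healthy, stored healthy, 2-week and 16-week sections, or 0.0456, 0.0774, 0.265 and 0.217 per 10000. Both tenotomy sections lay above both healthy ones, with folds over stored healthy of 3.42 (2.58 to 4.55) and 2.81 (2.11 to 3.74). COL11A1, a chain of type XI collagen known mainly from cartilage, had 8, 125, 15 and 176 UMIs, or 0.0114, 0.0997, 0.0368 and 0.371 per 10000. COL11A2, another type XI chain, had 11, 92, 9 and 40 UMIs, or 0.0157, 0.0734, 0.0221 and 0.0843 per 10000. Both type XI genes were thus high in the stored healthy and 16-week sections, which share an animal number, and low in the other sections. COL11A1 was 2.63-fold lower at 2 weeks and 3.72-fold higher at 16 weeks than in stored healthy muscle, with log2 ratios relative to the median gene of -1.91 and 1.12. COL11A2 was 3.17-fold lower at 2 weeks, and at 16 weeks it did not differ from stored healthy muscle beyond counting error (log2 ratio 0.21, -0.37 to 0.75).

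The sum of the tendon markers with a feature (3 of 5 listed genes, TNMD, MKX and THBS4) had the order of sections of COL11A1. It was 0.0228 per 10000 UMIs in fresh healthy, 0.0901 in stored healthy, 0.0319 in 2-week and 0.215 in 16-week muscle. These sums rested on 16, 113, 13 and 102 UMIs in the same order. The sum of 9 macrophage markers had this order of sections too, at 0.363, 1.64, 1.44 and 4.04 per 10000. The order was thus not particular to the tendon markers. THBS4 by itself was not lower at 2 weeks, at 0.0294 against 0.0223 in stored healthy muscle (log2 ratio 0.43, -0.71 to 1.42). MKX had no UMI in the fresh healthy and 2-week sections. The parts of tendon tissue and of macrophages in the type XI values were not tested. All 5 fibroblast markers with a feature had UMIs in every section, and their sum was 7.99, 15.0, 25.3 and 47.6 per 10000, with the highest value at 16 weeks and not at 2 weeks.

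Among the type IV genes, COL4A2 carried nearly all UMIs. UMIs depend on how well the annotation covers each 3′ end, so COL4A1 and COL4A2 were not compared as levels either. COL4A2 had 1157, 3779, 2312 and 3422 UMIs in the fresh healthy, stored healthy, 2-week and 16-week sections, or 1.65, 3.01, 5.67 and 7.21 per 10000. COL4A1, its partner in the common type IV network and its neighbour in the genome, had 57, 137, 73 and 134 UMIs, or 0.0812, 0.109, 0.179 and 0.282 per 10000. Both genes had the same order, and COL4A1 had 3.16 to 4.93 UMIs per 100 of COL4A2 with overlapping intervals in all 4 sections. The ratio of COL4A2 to COL1A2 UMIs was 0.772 (0.714 to 0.834) in fresh healthy, 0.299 (0.288 to 0.310) in stored healthy, 0.153 (0.146 to 0.160) in 2-week and 0.406 (0.390 to 0.423) in 16-week muscle. The 2-week section was therefore the lowest and the fresh healthy section the highest in type IV relative to type I. Endothelial markers (6 of 7 listed genes with a feature), whose cells lie on a type IV membrane, summed to 1.35, 2.26, 2.88 and 2.98 per 10000 in the same order. VWF alone gave 1.18, 2.09, 2.63 and 2.76 of these sums. Over the 4 of these markers with at least 20 UMIs, the median log2 ratio over stored healthy was 0.44 at 2 weeks and 0.27 at 16 weeks. Over all genes it was 0.63 and 0.94. The order of sections was not particular to endothelial markers. Schwann cell markers of nerves (4 of 6 listed genes with a feature) summed to 0.047, 0.129, 0.468 and 1.37, nearly all from S100B. The fibroblast sum also had this order. Smooth muscle and pericyte markers did not, at 1.79 in fresh and 1.50 in stored healthy muscle. The parts of these cells in the type IV values were not tested.

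COL15A1, a collagen of the basement membrane zone of muscle fibers and capillaries, did not keep step with type IV. It had 193, 524, 249 and 200 UMIs in the fresh healthy, stored healthy, 2-week and 16-week sections, or 0.275, 0.418, 0.610 and 0.422 per 10000. Set against COL4A2 it had 16.7 UMIs per 100 (14.2 to 19.4) in fresh healthy, 13.9 (12.6 to 15.2) in stored healthy, 10.8 (9.41 to 12.3) in 2-week and 5.84 (5.04 to 6.74) in 16-week muscle. The 16-week interval lay below those of all other sections. At 16 weeks the level of COL15A1 did not differ from the stored healthy section beyond counting error (log2 ratio 0.01, -0.23 to 0.25), and relative to the median gene it was -0.76.

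COL14A1 and COL12A1 belong to the collagens that sit on the surface of type I fibrils. COL14A1 had 23, 172, 129 and 142 UMIs in the fresh healthy, stored healthy, 2-week and 16-week sections, or 0.0328, 0.137, 0.316 and 0.299 per 10000. COL12A1 had 9, 46, 27 and 57 UMIs, or 0.0128, 0.0367, 0.0662 and 0.120 per 10000. COL14A1 stood at about the same level in both tenotomy sections (log2 ratio of 16 weeks over 2 weeks -0.08, -0.43 to 0.28), whereas COL12A1 was 1.80-fold higher at 16 than at 2 weeks, with a log2 interval from 0.18 to 1.58.

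Counts of collagen genes at least 2-fold apart were read against all genes with at least 20 UMIs in the sections compared. Between 2 weeks and stored healthy, 5 of 12 collagen genes were higher (COL1A1, COL1A2, COL3A1, COL5A2 and COL14A1) and 2 were lower (COL11A1 and COL11A2), beside 27.6% of all 5686 genes higher and 2.11% lower. The median log2 ratio was 0.89 over the collagen genes and 0.63 over all genes. Between 16 weeks and stored healthy, 7 of 13 were higher (COL5A2, COL11A1, COL4A1, COL4A2, COL12A1, COL14A1 and COL23A1) and 0 lower, beside 46.9% and 2.36% of 6025 genes. The medians were 1.13 and 0.94, so the collagen genes stood close to the general shift, and scaled by the median gene only COL11A1 and COL23A1 were still 2-fold higher. COL23A1 rested on 15 against 6 UMIs. Both contrasts share the stored healthy section.

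**Figure D3:**
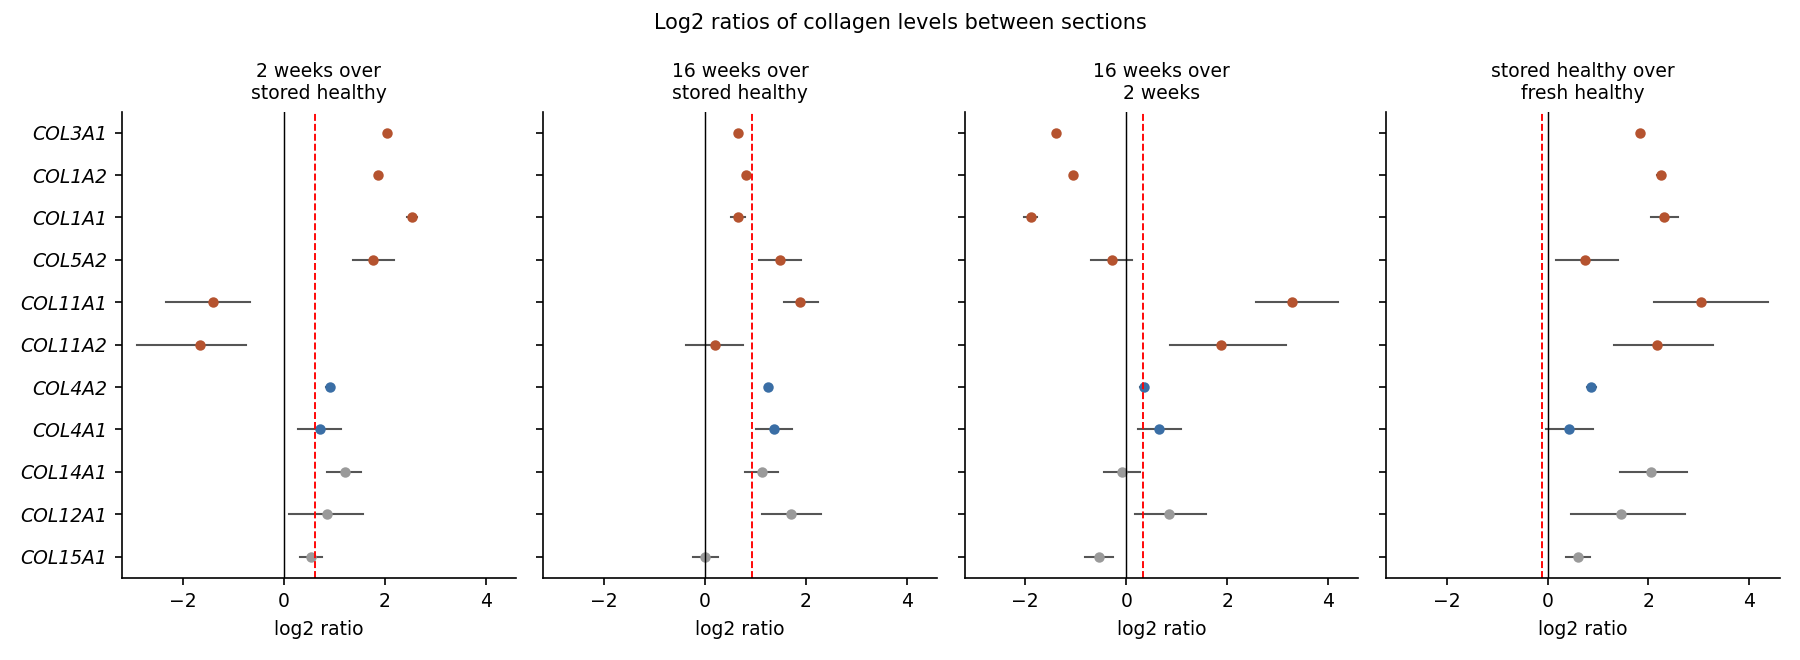
Log2 ratio of the level between sections for each collagen gene with at least 50 UMIs in all and at least 20 in the pair, with 95% intervals for counting error (red-brown, fibrillar, blue, type IV, grey, others). The solid line is 0 and the dashed line the median of all genes, which lies at 0.63, 0.94, 0.32 and -0.11 from left to right.

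Between 16 and 2 weeks, COL11A1 and COL11A2 were at least 2-fold higher and COL1A1, COL1A2 and COL3A1 at least 2-fold lower, that is 2 and 3 of 12, beside 18.1% and 5.26% of 5534 genes. COL1A1 was 3.72-fold lower, COL3A1 2.63-fold lower and COL1A2 2.09-fold lower at 16 weeks, and COL11A1 was 9.79-fold higher on 176 against 15 UMIs. The main fibrillar chains and the type XI chains therefore differed in opposite directions. With a minimum of 50 UMIs in the pair, COL11A2 no longer entered and 1 gene was higher.

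Between the healthy sections, 8 of 12 collagen genes were at least 2-fold higher in the stored one and 0 lower, beside 9.36% of 5756 genes higher and 11.0% lower. They were COL1A1, COL1A2, COL3A1, COL11A1, COL11A2, COL12A1, COL14A1 and COL8A1, a network collagen known from vessel walls. The median log2 ratio was 1.93 over the collagen genes and -0.11 over all genes. COL11A1 was 8.27-fold higher, COL1A1 4.92-fold, COL1A2 4.72-fold and COL3A1 3.55-fold. COL8A1 was 7.65-fold higher on 20 UMIs against 1, with an interval from 1.79 to 464. The difference between these healthy sections was as large for fibrillar collagen (3.97-fold, 3.85 to 4.09) as that between 2 weeks and stored healthy. The sections differed in animal and in storage, and the stored one carries the animal number of the 16-week section, so these cannot be told apart. All 8 macrophage markers with at least 20 UMIs were at least 2-fold higher in the stored section. The list of 9 genes summed to 0.363 per 10000 in the fresh and 1.64 in stored healthy muscle, and its part was not tested.

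The share of spots with a gene followed the depth of the spots as well as the level, so each spot was also thinned to 1000 UMIs, which left out 266, 93, 53 and 352 shallower spots in the fresh healthy, stored healthy, 2-week and 16-week sections. COL1A1 was found in 5.38% (4.42 to 6.48), 27.2% (25.5 to 29.0), 66.2% (62.9 to 69.3) and 22.1% (20.2 to 24.2) of spots, and after thinning in 1.43%, 6.86%, 33.3% and 13.2%. At equal depth the 16-week section was thus above and not below the stored healthy section. COL3A1 was found in 56.5%, 91.3%, 98.4% and 90.3% of spots and, thinned, in 30.3%, 62.3%, 93.9% and 78.2%. COL4A2 was found in 36.2%, 62.0%, 73.1% and 69.3% and, thinned, in 13.4%, 23.4%, 35.1% and 48.4%. The thinned order of sections equaled the order of levels for these 3 genes. COL15A1 was in 8.41%, 17.7%, 21.3% and 9.85% of spots, and the gap between 17.7% and 9.85% closed to 4.09% and 4.44% at equal depth. Thinned to 500 UMIs of genes other than the mitochondrial ones, COL15A1 was in 3.79% and 2.93% of these spots, with 16 weeks lower again, while COL1A1, COL3A1 and COL4A2 kept the order of their levels.

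Collagen UMIs were spread unevenly over the spots. The 5% of spots richest in COL3A1 held 31.7% of its UMIs in fresh healthy, 27.6% in stored healthy, 28.9% in 2-week and 28.2% in 16-week muscle. For COL1A2 these shares were 38.2%, 38.3%, 33.4% and 39.4%, and for COL4A2 32.1%, 27.1%, 29.6% and 25.7%. The deepest 5% of spots held 11.5%, 9.45%, 13.2% and 15.1% of all UMIs. The share of COL1A2 was above that of COL3A1 in every section, but COL1A2 also had fewer UMIs in each. Such a share rises as counts fall, so the concentration of these genes was not compared. The spot with most collagen lay in 2-week muscle and had 1390 collagen UMIs, 14.5% of its 9616 UMIs and 3.04% of the collagen of the section. It held 607 UMIs of COL1A2, 581 of COL3A1, 138 of COL1A1 and 51 of COL4A2, and without it the collagen level of the section was 109 per 10000.

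Which collagens went with COL1A1 was read within each section by comparing spots with at least 1 COL1A1 UMI (COL1A1 spots) with the spots that had none. Spots are no replicates, so these ratios carry no test. There were 105 COL1A1 spots in fresh healthy, 664 in stored healthy, 565 in 2-week and 382 in 16-week muscle, of which 90, 442, 196 and 243 had a single COL1A1 UMI. Their median depth was 4776 UMIs against 3512 in fresh healthy, 5819.5 against 5028.5 in stored healthy, 4876 against 4010 in 2-week and 2182 against 2025.5 in 16-week muscle. Mitochondrially encoded genes took 47.9% of UMIs in COL1A1 spots against 49.4% in the others in fresh healthy muscle. The shares were 45.5% against 50.9% in stored healthy, 32.7% against 36.9% in 2-week and 28.0% against 36.6% in 16-week muscle. A gene was set against all UMIs of its group of spots, so these shares enter every ratio. Only genes with at least 20 UMIs in the section were counted.

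Most collagens were higher in COL1A1 spots, with a ratio above 1 for 6 of 7 genes in fresh healthy, 11 of 11 in stored healthy, 8 of 8 in 2-week and 10 of 10 in 16-week muscle. In the fresh healthy section 4 of 7 collagen genes were at least 2-fold higher (2 with a minimum of 50 UMIs), beside 8.42% of 4277 genes. In the stored healthy section 9 of 11 were, beside 11.0% of 4989 genes, and COL4A2 and COL15A1 were the exceptions. The stored healthy count was 7 with a minimum of 50 UMIs, and also 7 without mitochondrial genes in the total. COL8A1 rested there on 10 against 10 UMIs (log2 ratio 1.13, -0.29 to 2.55). At 2 weeks 4 of 8 were, beside 9.02% of 4122 genes. At 16 weeks 6 of 10 were (5 with a minimum of 50 UMIs), beside 12.6% of 4715 genes. The median log2 ratio over the collagen genes was 1.46, 1.37, 1.01 and 1.48, and over all genes 0.12, 0.30, 0.13 and 0.32. Without the spots of 5 or more COL1A1 UMIs, the 2-week count was 0 of the collagen genes, against 4 in fresh healthy, 8 in stored healthy and 6 in 16-week muscle. This left out 120 of 565 COL1A1 spots at 2 weeks. It left out 1 of 105 in fresh healthy, 35 of 664 in stored healthy and 17 of 382 in 16-week muscle, so these counts do not compare the sections.

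**Figure D4:**
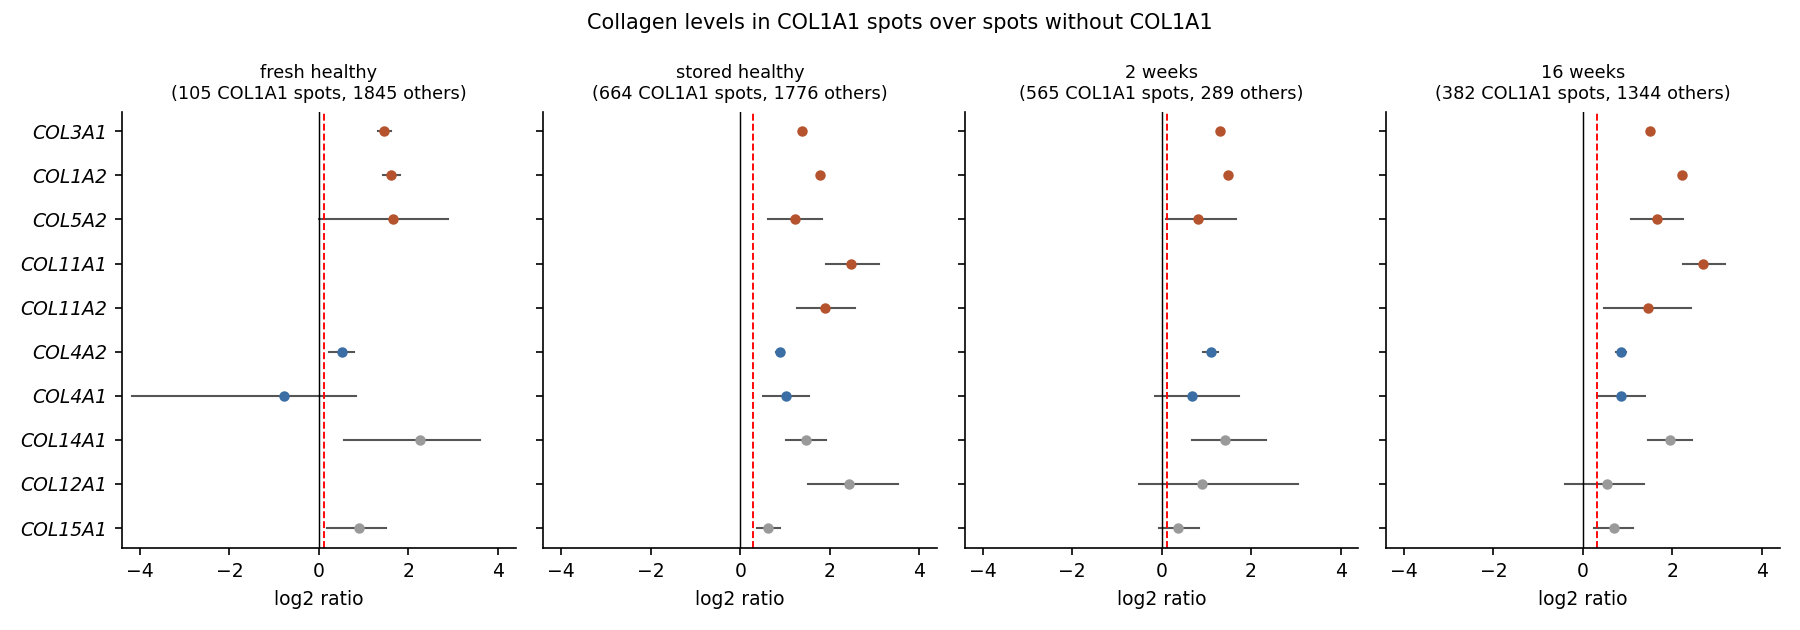
Log2 ratio of the level in COL1A1 spots over that in spots without COL1A1, for each other collagen gene with at least 50 UMIs in all and at least 20 in the section, with 95% intervals for counting error (red-brown, fibrillar, blue, type IV, grey, others). The solid line is 0 and the dashed line the median of all genes, and COL1A2 and COL3A1 lie to the right of both in all 4 sections.

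COL1A2 was 5.72 per 10000 in COL1A1 spots and 1.86 in the others in fresh healthy muscle, 19.7 and 5.70 in stored healthy, 44.6 and 15.9 in 2-week, and 44.8 and 9.67 in 16-week muscle. The log2 ratios were 1.62, 1.79, 1.49 and 2.21, with the highest at 16 weeks. COL3A1 had log2 ratios of 1.46, 1.37, 1.30 and 1.50. COL4A2 had lower ones, 0.51 (0.22 to 0.79), 0.88 (0.79 to 0.98), 1.10 (0.93 to 1.27) and 0.86 (0.75 to 0.96), above 0 beyond counting error in each section. In the fresh healthy, stored healthy and 16-week sections the type IV chain was thus less tied to COL1A1 spots than the main fibrillar chains were, while at 2 weeks the intervals of COL4A2 and COL3A1 overlapped (COL3A1 1.25 to 1.35).

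Of the collagen genes with at least 20 UMIs in the section, COL11A1 had the highest ratio in the stored healthy and 16-week sections. It had 90 UMIs in COL1A1 spots against 35 in the more numerous other spots in stored healthy muscle (log2 ratio 2.48, 1.91 to 3.10), and 116 against 60 at 16 weeks (2.69, 2.23 to 3.17). In the sections with few COL11A1 UMIs, all lay in COL1A1 spots: 8 against 0 in fresh healthy muscle, in 4 spots, and 15 against 0 at 2 weeks, in 10 spots. From the depth of the spots alone, 0.231 of these 4 and 7.51 of these 10 were expected to be COL1A1 spots. At 2 weeks all 10 spots were shared, the most possible. The observed over expected ratio (1.33, 0.638 to 2.45) thus could not exceed 1 beyond its interval and cannot decide on this split. By UMIs the 2-week split had a log2 ratio of 3.48 with a lower bound of 0.37, and 4 of the 15 UMIs lay in 1 spot. COL11A2 had log2 ratios of 1.89 in stored healthy and 1.46 in 16-week muscle, the latter below COL1A2, COL14A1, COL5A2 and COL3A1. Its 11 UMIs in fresh healthy muscle all lay outside the COL1A1 spots, where depth alone gave 0.744 shared spots. COL14A1 stood at 2.26, 1.46, 1.41 and 1.94 in the fresh healthy, stored healthy, 2-week and 16-week sections, the first on 23 UMIs in all. COL12A1 had 2.44 (1.51 to 3.52) in stored healthy muscle, on 33 against 13 UMIs. It had 0.53 (-0.40 to 1.36) in 16-week muscle, on 17 against 40. These intervals do not overlap, but the 2-week interval (0.91, -0.50 to 3.05) holds both values. The observed over expected spots of COL12A1 with COL1A1 had overlapping intervals in stored healthy (1.37 to 2.95) and 16-week muscle (0.738 to 2.18). COL15A1 was weakly tied, with 0.90, 0.63, 0.37 and 0.69, and COL4A1 had 2 UMIs against 55 in fresh healthy muscle, with a log2 interval from -4.17 to 0.83.

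The levels of COL1A2 climbed with the number of COL1A1 UMIs in the spot. At 16 weeks COL1A2 was 9.67 per 10000 in spots without COL1A1, 23.5 in spots with 1 UMI, 68.8 in spots with 2 to 4 and 201 in spots with 5 or more. At 2 weeks these levels were 15.9, 19.8, 32.3 and 95.2, and in stored healthy muscle 5.70, 12.5, 21.6 and 69.5. The step from 0 to 1 COL1A1 UMI was thus smallest at 2 weeks, in a section where the median spot held 32 collagen UMIs. COL11A1 at 16 weeks went from 0.164 through 0.442 and 1.79 to 5.43, and COL4A2 from 6.08 through 9.05 and 14.3 to 18.1. COL15A1 had overlapping intervals in neighbouring classes in 16-week muscle, from 0.370 (0.310 to 0.438) to 1.41 (0.566 to 2.90). Some levels did not climb at every step: COL15A1 went from 0.642 to 0.621 between the last classes in stored healthy muscle, COL5A2 from 0.166 to 0.139 between the first classes at 2 weeks and COL4A1 from 0.503 to 0.201 between the last classes at 16 weeks, all with overlapping intervals. The last class held 35 spots in stored healthy, 120 in 2-week and 17 in 16-week muscle.

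**Figure D5:**
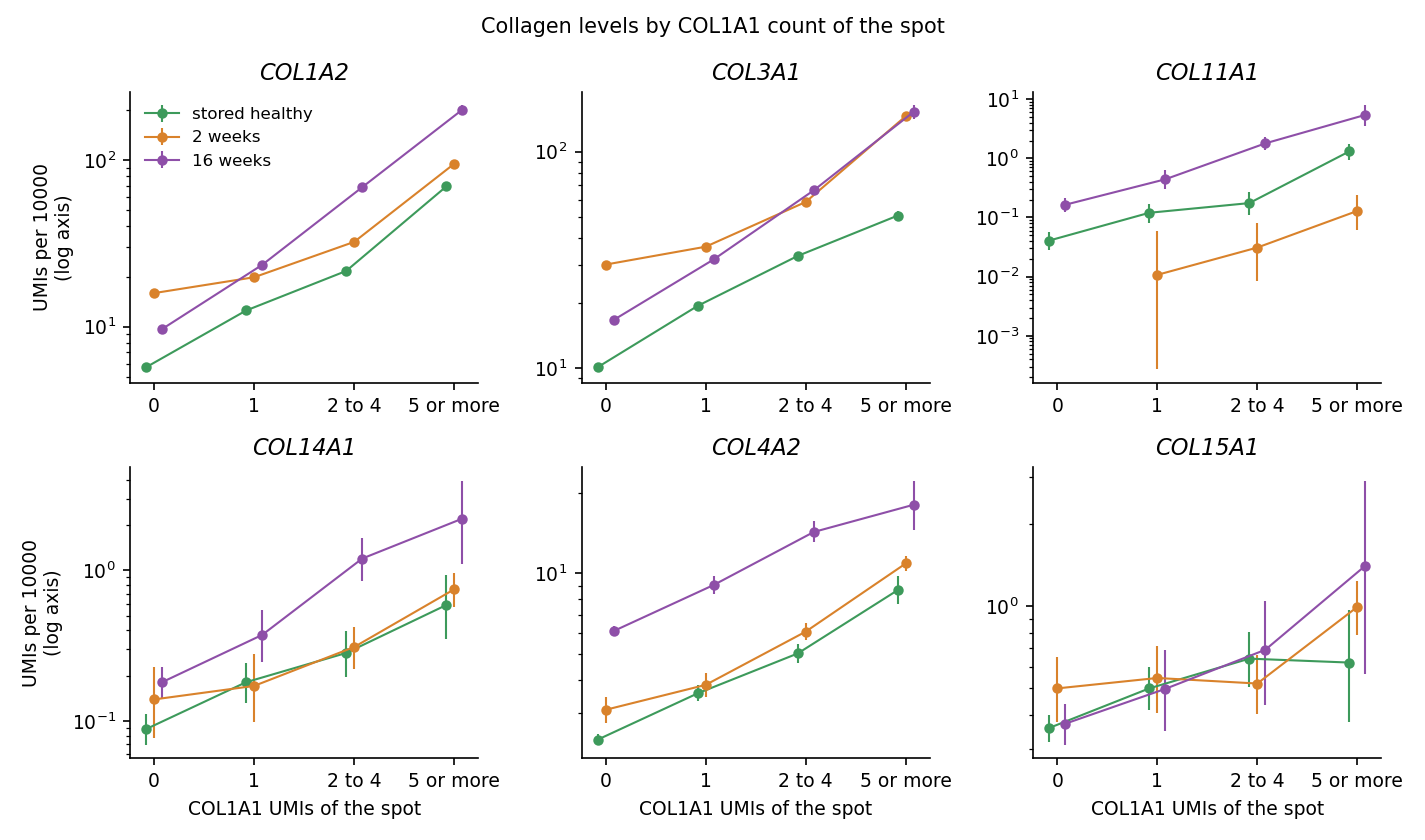
Level of 6 collagen genes (UMIs per 10000, log axis) in spots with 0, 1, 2 to 4 and 5 or more COL1A1 UMIs, in the stored healthy, 2-week and 16-week sections, with exact Poisson 95% intervals. COL11A1 had 0 UMIs in 2-week spots without COL1A1, a point that a log axis cannot show, and COL1A2 at 16 weeks climbs from 9.67 to 201.

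Co-detection was set against the number of shared spots expected if each gene were found independently within 10 depth classes of spots. COL1A1 and COL11A1 shared 68 spots at 16 weeks, where 23.3 were expected, a ratio of 2.92 (2.27 to 3.71), and 50 spots in stored healthy muscle, where 25.8 were expected (1.93, 1.44 to 2.55). COL1A1 and COL14A1 shared 2.14 times the expected number at 16 weeks (1.62 to 2.78), 1.78 times in stored healthy muscle (1.42 to 2.20) and 1.22 times at 2 weeks (0.975 to 1.50). COL1A1 lay in 66.2% of 2-week spots, against 22.1% at 16 weeks and 27.2% in stored healthy muscle. This caps the 2-week ratios with COL1A1, so they were not ranked against the other sections. COL1A1 with COL12A1 reached 2.05 in stored healthy muscle (1.37 to 2.95) and 1.32 at 16 weeks (0.738 to 2.18). In stored healthy muscle COL1A1 was thus found with COL11A1, COL14A1 and COL12A1 more often than depth alone gave. At 16 weeks this held for COL11A1 and COL14A1. It was not particular to these genes. COL1A1 with COL5A2 reached 1.47 in stored healthy muscle (1.07 to 1.97) and 1.78 at 16 weeks (1.27 to 2.42). With depth classes that left out mitochondrial UMIs, COL5A2 stood at 1.21 in stored healthy muscle and 1.74 at 16 weeks. By those classes COL11A1, COL14A1 and COL12A1 stood at 1.67, 1.57 and 1.83 in stored healthy muscle. No intervals were computed for these alternative ratios. In the same sections COL4A1 reached 1.49 (1.14 to 1.92) and 1.44 (1.05 to 1.94), and COL4A2 1.16 (1.07 to 1.27) and 1.13 (1.01 to 1.27). COL11A2 reached 1.80 (1.30 to 2.43) and 1.70 (0.927 to 2.85). With the main chains, COL1A1 shared 1.49 times the expected number of spots with COL1A2 (1.16 to 1.88) and 1.29 times with COL3A1 (1.04 to 1.59) in fresh healthy muscle, and at most 1.14 times in the other sections, where both genes lay in 77.8% to 98.4% of spots.

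Pairs without COL1A1 were read in the same way. COL11A1 and COL14A1 shared 23 spots at 16 weeks with 7.15 expected (3.22, 2.04 to 4.83), and 21 in stored healthy muscle with 6.69 expected (3.14, 1.94 to 4.80, and 2.46 with 20 depth classes). COL5A2 and COL14A1 reached 2.68 at 16 weeks (1.56 to 4.30) and 2.30 in stored healthy muscle (1.29 to 3.79). COL11A1 and COL11A2 shared 20 spots in stored healthy muscle with 3.64 expected, below the minimum of 5 set for a ratio. COL15A1 was found with COL4A1 at 2.29 times the expected number in fresh healthy muscle (1.28 to 3.78) and 1.73 times in stored healthy muscle (1.26 to 2.32). Pairs across the types also stood above 1, with COL15A1 and COL14A1 at 1.43 in stored healthy muscle (1.03 to 1.92) and 1.76 at 16 weeks (1.08 to 2.72), and COL5A2 and COL4A1 at 2.06 in stored healthy muscle (1.06 to 3.59). With depth classes that left out mitochondrial UMIs, the stored healthy ratios of these pairs were 1.32 and 1.77, without intervals. At 2 weeks the single pair above 1 beyond its interval was COL15A1 with COL5A2 (1.58, 1.09 to 2.22). Of all pairs with at least 5 expected spots, the interval lay above 1 for 8 of 23 in fresh healthy, 16 of 45 in stored healthy, 1 of 40 in 2-week and 10 of 44 in 16-week muscle, and below 1 for 0. These counts do not compare the sections, since a pair with a gene found in nearly all spots can hardly exceed 1. COL3A1 lay in 98.4% of 2-week but 56.5% of fresh healthy spots, and COL1A2 in 96.5% and 37.8%. In spots thinned to 1000 UMIs, Spearman's rho of COL1A1 with COL1A2 was 0.02 over 1684 fresh healthy, 0.16 over 2347 stored healthy, 0.42 over 801 2-week and 0.38 over 1374 16-week spots. COL1A1 lay in 1.43%, 6.86%, 33.3% and 13.2% of these spots in the same order. So few spots with a count limit rho, most of all in fresh healthy muscle, and rho does not rank the sections. The spots share a section and lie next to each other, so the values are a description only.

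Genes outside the collagens were ranked by the same ratio among those with a symbol and at least 50 UMIs in the section. At 16 weeks the first were SPP1 (osteopontin, 3.31), PDGFRL (2.58), KERA (keratocan, a proteoglycan of collagen fibrils, 2.45), GPNMB and FNDC1, and the COL11A1 ratio of 2.69 lay between the first and the second. In the stored healthy section they were MMP12 (macrophage elastase, 3.54), TNMD (tenomodulin, a tendon marker, 3.47), SPP1 (3.18), ATP6V0D2 and GPNMB. Of the 255 MMP12 UMIs there, 179 lay in 1 spot, of the 570 GPNMB UMIs 334, and of the 60 ATP6V0D2 UMIs 37. TNMD had at most 5 UMIs in a spot and was found in 30 COL1A1 spots. At 2 weeks they were PHGDH (the first enzyme of serine synthesis, 3.26), CORO1A, MYL4 (a myosin light chain of developing muscle), PLA2G7 and BGLAP. These ratios rest on 2 (PHGDH) to 7 (MYL4) UMIs in the other spots, and the PHGDH interval ran from 1.66 to 6.65. Of the 117 MYL4 UMIs 28 lay in 1 spot, and of the 89 BGLAP UMIs 29. In the fresh healthy section they were MYH8 (the neonatal myosin heavy chain, 5.05), CILP, ACTC1, ACAP1 and PBX2, and 45 of the 83 MYH8 UMIs lay in 1 spot.

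Marker lists for the cells a spot can hold were set beside these ratios. In COL1A1 spots of the stored healthy section, the tendon markers summed to 0.221 per 10000 against 0.0302 in other spots, the macrophage markers to 3.25 against 0.906 and the fibroblast markers to 24.1 against 10.9. At 16 weeks the same sums were 0.586 against 0.104, 8.17 against 2.81 and 77.1 against 38.7. The stored healthy macrophage sum includes 334 GPNMB UMIs of 1 spot, and all 8 tested macrophage genes had ratios above 1 there. Muscle fiber markers summed to 206 against 178 in stored healthy and 203 against 248 in 16-week muscle. The stored healthy sum joined opposite directions, since MYH7 was higher and MYH1 lower in COL1A1 spots. MB differed little there, and the median log2 ratio of the 3 genes was 0.08. At 16 weeks 0 of the 3 genes had a ratio above 1, with a median of -0.27. Smooth muscle and pericyte markers summed to 2.34 against 1.11 in stored healthy, 4.14 against 1.19 in 2-week and 6.88 against 3.38 in 16-week muscle, and endothelial markers to 3.03 against 1.91, 3.13 against 2.16 and 4.67 against 2.48. At 2 weeks the fibroblast markers summed to 29.4 against 14.1 and the macrophage markers to 1.68 against 0.767. In fresh healthy muscle the fibroblast markers summed to 13.5 against 7.57 and the macrophage markers to 0.416 against 0.359, with 2 of 4 tested macrophage genes above 1. The summed markers of these stromal and immune cells were thus higher in COL1A1 spots of the stored healthy, 2-week and 16-week sections, and their part in the collagen ratios was not tested.

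The enzymes and partners of collagen had another order of sections than the fibrillar genes. The list for synthesis, folding and crosslinking (20 of 31 genes with a feature) summed to 1.99 per 10000 in fresh healthy, 4.04 in stored healthy, 6.02 in 2-week and 9.62 in 16-week muscle. The list of matrix partners (15 of 21) summed to 8.07, 18.2, 34.0 and 48.0, and DCN, LUM and THBS4 in it are also among the cell markers. Both were highest at 16 weeks, where collagen as a whole was 52.1 per 10000 against 112 at 2 weeks. DCN alone gave 5.87, 8.77, 13.6 and 23.4 of the partner sums. The list sums were not scaled by the median gene, which stood 0.27 higher on the log2 scale at 16 than at 2 weeks.

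Over stored healthy, 6 of 16 synthesis genes were at least 2-fold higher at 2 weeks and 11 of 16 at 16 weeks, and 0 were lower at either time, beside 27.6% and 46.9% of all genes higher and 2.11% and 2.36% lower. The highest at 2 weeks were FKBP10, a chaperone of type I procollagen (log2 ratio 1.81, 1.18 to 2.45), and the prolyl hydroxylase P3H3. P3H3 stood at 1.62 (0.34 to 2.90) on only 12 against 12 UMIs. The lowest were CRTAP (0.30) and PCOLCE2 (-0.05). At 16 weeks the highest were PLOD2, which hydroxylates lysines for crosslinks (2.90, 2.29 to 3.58), and P3H3 (2.49), and the lowest P3H4 (0.84) and P4HA3 (0.55). Of the partners, 5 of 11 were higher at 2 weeks and 13 of 13 at 16 weeks, and 0 were lower, beside the same shares of all genes. The median log2 ratio at 2 and 16 weeks was 0.91 and 1.50 over the synthesis genes, 0.94 and 2.00 over the partners, and 0.63 and 0.94 over all genes. EPYC, a small proteoglycan, led at 2 weeks (3.58) and at 16 weeks (2.78), followed by NID2 (1.99) at 2 weeks and OGN (2.76) at 16 weeks. NID2 rested on 17 against 13 UMIs (0.88 to 3.17), and EPYC had 12 UMIs in stored healthy muscle. MATN2 (0.61) and THBS4 (0.43) were lowest at 2 weeks, and ASPN (1.06) and fibronectin FN1 (1.01) at 16 weeks.

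Between 16 and 2 weeks, where COL1A1, COL1A2 and COL3A1 were lower, 5 of 16 synthesis genes and 4 of 13 partners were at least 2-fold higher and 0 lower, beside 18.1% of all genes higher and 5.26% lower. The crosslinking enzymes LOX (1.42, 0.62 to 2.36) and PLOD2 (1.33, 0.72 to 2.02) and the thrombospondins THBS1 (2.10) and THBS4 (2.06) stood highest. P3H4 (-0.03), P4HA3 (-0.11), FN1 (-0.13) and EPYC (-0.80) stood lowest. Between the healthy sections, 5 of 16 synthesis genes were higher and 1 lower in the stored one, beside 9.36% and 11.0% of all genes, with P4HA3 (2.98) and LOX (1.92) highest and P3H4 (-0.40) and P4HA1 (-1.07) lowest. P4HA3 rested on 49 against 3 UMIs and LOX on 30 against 4. Of the partners, 5 of 10 were higher and 0 lower, beside the same shares, with KERA (2.62) and LUM (2.43) highest and HSPG2 (0.34) and NID2 (-0.33) lowest.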

How the data were processed

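UMI counts per gene and spot were measured in 4 sections of rabbit supraspinatus. The authors made these counts with Space Ranger 1.2.0 on OryCun2.0 with Ensembl annotation, per the submitters' processing notes and methods, and deposited them for spots under tissue without normalization. A UMI marks the 3′ end of 1 molecule. Spot position lists carry no barcodes and were not used.

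All spots and genes were used, with no doublet caller. The members and lists were chosen with earlier results of these data known. Genes with at least 50 UMIs over the sections were named in full. Outside the collagens, the 5 highest ratios per section in COL1A1 spots and the 2 highest and 2 lowest ratios of each list and pair were named. Levels are UMIs per 10000 UMIs, and log2 ratios had 0.5 UMI added. Sums carry exact Poisson, shares exact Clopper-Pearson and ratios exact conditional binomial intervals at 95%, for counting error only. With 1 section a condition there was no test. The mitochondrial genes (37) were recognized by neighbouring identifiers. Alternatives covered the total, scaling by the median gene, minimum counts, thinning, spot filters, depth classes and COL15A1 counted with type IV. Leaving out spots with 5 or more COL1A1 UMIs, leaving out the richest spot for ratios, a minimum of 5 UMIs for shares and Spearman's rho were added after seeing the data. The code ran in Python 3.11.15 with pandas 2.3.3, scipy 1.17.1, numpy 2.4.6 and matplotlib 3.10.9 and was tested on simulated data.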

Additional observations from a re-analysis of the deposited data

Results flagged for a closer look

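COL11A1 was on opposite sides of the stored healthy section in the tenotomy sections. Its log2 ratio over stored healthy was -1.40 (-2.32 to -0.66) at 2 weeks, on 15 against 125 UMIs, and 1.89 (1.56 to 2.24) at 16 weeks, on 176 UMIs. The difference between these ratios was not tested, since each condition was 1 section and both ratios share the stored healthy section. With mitochondrial genes left out of the total the ratios were -1.78 and 1.53, and scaled by the median gene -1.91 and 1.12.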

How the results depend on the processing

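With 1 section a condition no result has a replicate check, and the depth limits the genes below 50 UMIs to totals. Without mitochondrial genes in the total, collagen was 17.1, 59.2, 169 and 79.6 per 10000 UMIs in the fresh healthy, stored healthy, 2-week and 16-week sections. Under that total the log2 ratios over stored healthy at 2 and 16 weeks were 1.62 and 0.36 for fibrillar collagen, 0.53 and 0.90 for type IV and 0.37 and 0.22 for the others. Scaled by the median gene they were 1.49 and -0.04, 0.40 and 0.49, and 0.24 and -0.18, so the fibrillar and other collagens at 16 weeks reversed, and 2 genes in place of 7 were 2-fold higher at 16 weeks. By the same scaling 16 weeks over 2 weeks gave -1.54 for fibrillar, 0.09 for type IV and -0.43 for the others. With COL15A1 counted as type IV, that type gave 1.16 at 16 weeks over stored healthy, and the others gave 1.10 at 2 weeks, 1.33 at 16 weeks, 0.23 for 16 over 2 weeks and 2.07 for stored over fresh. Without the richest spot, collagen was 109 per 10000 at 2 weeks and 51.2 at 16 weeks, and the fibrillar log2 ratio at 2 weeks 1.96. A minimum of 50 UMIs left 1 gene higher at 16 than at 2 weeks. In COL1A1 spots it left 2 in fresh healthy, 7 in stored healthy and 5 in 16-week muscle. Without mitochondrial genes in the total, 7 genes were 2-fold higher in stored healthy COL1A1 spots. Without spots of 5 or more COL1A1 UMIs, which were 120 of the 565 COL1A1 spots at 2 weeks, 0 genes were 2-fold higher in 2-week COL1A1 spots. Leaving mitochondrial genes out of the total, or scaling by the median gene, moves all ratios of a pair of sections by the same amount. The effect of the other alternatives depends on the counts. Restricting to spots with at least 500 UMIs left 16 levels and ratios inside their counting intervals and the 4 counts of genes in COL1A1 spots at 4, 9, 4 and 6. Adding 1 UMI left the 8 counts of genes between sections unchanged. With at least 2 UMIs for a COL1A1 spot, 5, 9, 6 and 8 genes were 2-fold higher in place of 4, 9, 4 and 6.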
